A study of Homo sapiens with 18 samples.

Results

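Oxidative phosphorylation passes electrons along 4 respiratory complexes in the inner mitochondrial membrane and uses the resulting proton gradient to make ATP in complex V. The nuclear genes for the protein subunits of these 5 complexes were followed in 2 human cancer cell lines that had received short RNAs. Members were chosen by name and gene class, without measured values: protein-coding genes whose symbols start with NDUFA, NDUFB, NDUFC, NDUFS or NDUFV and a number, UQCR, COX4 to COX8 or ATP5, with SDHA to SDHD and CYC1. The rule found 91 of the 19912 protein-coding genes, among 58395 genes of all kinds in the tables. Complex I gave 39 genes, complex II 4, complex III 10, complex IV 17 and complex V 21. Another 152 genes with matching symbols, mostly pseudogenes, were not protein coding and were left out.

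Each complex has its own task. Complex I (NADH dehydrogenase) and complex II (succinate dehydrogenase, also an enzyme of the TCA cycle) feed electrons to ubiquinone, complex III (the cytochrome bc1 complex) hands them to cytochrome c, complex IV (cytochrome c oxidase) gives them to oxygen, and complex V is the ATP synthase. Apart from complex II, each also holds subunits encoded in mitochondrial DNA, and cancer lines differ widely in how much they rely on this pathway. The symbol rule also takes in some genes that are not classical subunits: NDUFA4, now placed with complex IV, ATP5IF1, an inhibitor of the ATP synthase, COX7A2L, a factor of respiratory supercomplexes, and ATP5S, now named as an assembly factor.

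The lines were HeyA8, an ovarian cancer line, and PC3, a prostate cancer line, each a single established line. All groups were transfected with RNAiMax carrying 10 nM of a short RNA and were harvested at 48 hours. In each line 3 libraries received the control sNT8, 3 received sG5C and 3 received sCAG, which gave 6 groups of 3 and 18 libraries of total RNA. The series title ties these RNAs to a toxic form of RNA interference called DISE; sample titles write the sG5C groups as Mxy. The labels do not say that replicates A, B and C came from separate cultures, so p-values measure the spread between these libraries.

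Libraries held 31232377 to 41384838 reads on genes, and the 91 members took 0.459% to 0.795% of them. The ovarian marker PAX8 stood at 344 to 358 CPM (read counts scaled to a common library total) in HeyA8 with sNT8 and the prostate marker HOXB13 at 241 to 259 CPM in PC3 with sNT8. The defining markers MUC16 in HeyA8 and KLK3, KLK2 and FOLH1 in PC3 were at 0 with sNT8. Summed levels of 6 leukocyte markers stayed between 0.0911 and 2.19 CPM. Some marker levels moved with the RNAs, and their part in the results was not tested. The summed level of 5 endothelial markers, most of it CDH5 in HeyA8, was 73.0 to 77.9 CPM with sNT8, 62.5 to 63.8 CPM with sG5C and 17.3 to 18.6 CPM with sCAG in HeyA8, and 97.8 to 115, 66.9 to 77.8 and 118 to 144 CPM in PC3. The summed level of 5 epithelial markers, most of it KRT8 and KRT18 in HeyA8, was 900 to 995, 386 to 418 and 1243 to 1332 CPM in HeyA8 in the same order, and 512 to 555, 589 to 657 and 686 to 704 CPM in PC3. The other epithelial markers were low in HeyA8 with sNT8: CDH1 at 0, EPCAM at 0.55 to 1.02 and KRT19 at 0.33 to 0.34 CPM. In PC3 with sNT8 they stood at 2.79 to 3.27, 13.7 to 15.1 and 290 to 329 CPM. With sG5C, PAX8 stood at 141 to 159 CPM in HeyA8 and HOXB13 at 39.6 to 47.3 CPM in PC3. In bulk RNA, fewer cells and less RNA per cell cannot be told apart. Genes of the mitochondrial DNA were listed at 0 reads in every library, so their subunits could not be compared. Reads of some members may be shared with copies: pseudogenes of NDUFV2 and COX6A1 held more reads than the genes themselves, SDHA has expressed pseudogenes, and 15 members share over 25% of their exon bases with another gene.

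Promoters of respiratory genes are known for sites of nuclear respiratory factor 1 (NRF-1) and of ETS factors such as GABP. In RefSeq promoters of GRCh38.p14, 68 of the 91 members were matched. The letters GCGCATGC, an NRF-1 core, stood on either strand within 250 bases before the start in 12 of these 68 promoters (17.65%), against 3.699% of 15843 promoters of protein-coding genes. The ETS core CCGGAAG stood in 16 of 68 (23.53%), against 11.8%. By complex, the NRF-1 core was in 2 of 3 matched genes of complex II, 4 of 12 of complex V, 4 of 32 of complex I, 2 of 14 of complex IV and 0 of 7 of complex III. Stretches from the promoters that held both motifs, in 5 genes from 3 complexes, are shown because they hold the shared letters; capitals mark the motifs on the strand of the gene, 5′ to 3′, and the match of SDHD covers overlapping copies on both strands.
SDHB chr1:17054134-17054252 (− strand): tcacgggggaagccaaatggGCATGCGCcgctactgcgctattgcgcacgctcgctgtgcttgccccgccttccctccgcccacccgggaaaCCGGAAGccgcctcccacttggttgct
SDHD chr11:112086743-112086822 (+ strand): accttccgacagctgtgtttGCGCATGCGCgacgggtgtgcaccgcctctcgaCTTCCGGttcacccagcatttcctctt
COX5B chr2:97645906-97646051 (+ strand): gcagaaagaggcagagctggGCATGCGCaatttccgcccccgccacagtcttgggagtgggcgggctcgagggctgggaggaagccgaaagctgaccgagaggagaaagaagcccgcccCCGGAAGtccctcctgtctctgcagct
COX6A1 chr12:120437875-120438112 (+ strand): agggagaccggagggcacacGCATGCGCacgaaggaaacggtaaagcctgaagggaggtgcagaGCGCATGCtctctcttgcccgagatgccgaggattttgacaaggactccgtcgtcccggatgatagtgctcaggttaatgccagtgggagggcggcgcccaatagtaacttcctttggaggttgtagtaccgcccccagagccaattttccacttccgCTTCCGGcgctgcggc
ATP5PF chr21:25735058-25735194 (− strand): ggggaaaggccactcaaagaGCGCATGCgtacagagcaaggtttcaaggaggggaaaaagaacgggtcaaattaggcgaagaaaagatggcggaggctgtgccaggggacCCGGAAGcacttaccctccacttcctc
A match is a description of letters, not of binding. The starts are those of RefSeq and can differ from the starts of the genes as counted. As counted, for example, ATP5PF starts at 25735673 and SDHD at 112086773. The ATP5PF stretch and the ETS match of SDHD thus lie inside the counted genes. Of the 12 genes with the NRF-1 core, 2 were called higher and 5 lower after sCAG in HeyA8, beside 20 higher and 16 lower of 51 matched members without it. After sCAG in PC3, 6 of the 12 were called higher and 1 lower, beside 22 and 4 of 52 without it. After sG5C the 12 gave 0 higher and 3 lower calls in HeyA8 and 4 and 1 in PC3, beside 7 and 17 and 10 and 17 of 52. Of all genes tested, 59.5% and 52.4% were called in HeyA8 with sCAG and sG5C, and 50.8% and 57.7% in PC3. Whether the 12 differ from the rest or from all genes was not tested. The 5 genes whose sequences are shown did not share a course. In HeyA8 after sCAG, SDHB, SDHD and COX5B fell (log2 fold changes of −0.20, −0.64 and −0.22), ATP5PF rose by 0.25 and COX6A1 was at 0.13 without passing the test. In PC3 after sCAG, SDHB, COX5B and COX6A1 rose by 0.30, 0.15 and 0.42, SDHD fell by 0.21 and ATP5PF was at 0.16 without passing the test. The calls of ATP5PF in HeyA8 and COX5B in PC3 were lost with scaling by library totals.

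Under the control RNA, both lines expressed the pathway broadly, with large differences for single subunits. Per kilobase of exon, ATP5F1B, the catalytic beta subunit of the ATP synthase, was the most abundant member in both lines, at 325 ± 8.55 CPM per kb (SD, n = 3) in HeyA8 and 428 ± 8.00 in PC3. COX6B1, CYC1 and COX7C followed in HeyA8, at 100.2, 89.3 and 84.2 CPM per kb with SDs of 4.51, 4.39 and 2.36, so that CYC1 and COX7C lay within the spread of each other. In PC3 the next were CYC1 at 157 ± 9.93, COX7C at 136 ± 7.33 and NDUFB7 at 109 ± 11.1 CPM per kb. COX7B2 and NDUFC2-KCTD14, a readthrough of neighbouring genes, had 0 reads in all 18 libraries, which allows a level of at most 0.0725 to 0.0960 CPM per library. The tissue-restricted forms COX4I2, COX6A2 and COX8C stayed at or below 0.203 CPM, whereas their broadly used counterparts COX4I1, COX6A1 and COX8A stood at 119, 25.5 and 25.5 CPM in HeyA8 with sNT8 and at 147, 43.2 and 35.2 CPM in PC3 with sNT8.

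Between the lines under sNT8, 43 of 86 tested members were called higher and 23 lower in PC3 than in HeyA8 (edgeR quasi-likelihood test, Benjamini-Hochberg adjusted p under 0.05), where 71.3% of all 27105 genes tested were called, 38.5% higher and 32.7% lower. NDUFB11, an accessory subunit of the complex I membrane arm, stood at 18.5, 17.9 and 18.4 CPM in HeyA8 and at 69.3, 68.0 and 62.2 CPM in PC3. The groups were far apart, with a log2 difference of 1.86 (SE 0.07, adjusted p = 3.27e-27). ATP5MC3, a gene for the proton-carrying c subunit, was higher in PC3 by 1.32, and NDUFB2 and NDUFB6, further membrane-arm subunits, by 1.28 and 1.23. Lower in PC3 were NDUFA4L2, a NDUFA4 relative known as a hypoxia-induced gene, by −1.37, NDUFA9, an accessory subunit near the quinone site, by −0.88, ATP5F1C, the gamma subunit of the ATP synthase rotor, by −0.85, and NDUFB9 by −0.78. Scaled by library totals, 60 members were called higher and 12 lower, since the median of all genes then moved by 0.25. Line and preparation cannot be told apart in this comparison.

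Against sNT8, each short RNA moved many subunit genes by small amounts, and the direction depended on the line and the RNA. All fold changes against sNT8 are log2 differences of the deposited normalized counts plus 1, tested with limma and adjusted over all genes. In HeyA8 with sCAG, 30 of 84 tested members were called higher and 28 lower, with 59.5% of all genes called (29.3% higher, 30.2% lower). In HeyA8 with sG5C, 11 of 85 were called higher and 27 lower, with 52.4% of all genes called (24.5% higher, 27.9% lower). The count of 11 fell to 5 without sNT8 C or sG5C C and to 7 without sNT8 B or sG5C B, and was 17 without sG5C A. In PC3 with sCAG, 38 of 85 were called higher and 7 lower, with 50.8% of all genes called (27.6% higher, 23.2% lower). In PC3 with sG5C, 19 of 86 were called higher and 24 lower, with 57.7% of all genes called (28.5% higher, 29.2% lower); without sG5C B, 11 were called higher. In total, 69.0% of members were called in HeyA8 with sCAG, above the share of all genes. The 44.7% in HeyA8 with sG5C and 43 of 86 in PC3 with sG5C were below it. The 52.9% in PC3 with sCAG was near it. The shares of all genes, here and below, are those of the main filter. With a stricter filter, a mean of 100, 9871 of 12740 genes were called in HeyA8 with sCAG and 8995 of 12820 with sG5C. In PC3, 9263 of 13402 were called with sCAG and 10114 of 13397 with sG5C. The member shares above, from the main filter, all lay below these. The excess of higher over lower calls in PC3 with sCAG was the widest split of the members. Genes past the stricter filter leaned the same way there (5566 higher, 3697 lower) and in HeyA8 with sG5C (3806 and 5189). They gave 4901 and 4970 in HeyA8 with sCAG and 4901 and 5213 in PC3 with sG5C.

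The splits of the members rest on the scaling. The member medians were −0.00, −0.09, 0.14 and −0.05 in the order above, beside medians of 0.01, 0.01, −0.00 and −0.01 over all genes tested. When each library was scaled to its total instead, the all-gene medians shifted by −0.12, 0.13, −0.17 and −0.06. The higher and lower counts then became 22 and 38 for HeyA8 with sCAG, 31 and 12 for HeyA8 with sG5C, 16 and 24 for PC3 with sCAG, and 15 and 31 for PC3 with sG5C. Relative to the median of all genes the member medians were −0.01, −0.10, 0.14 and −0.04. A change of scaling shifts all genes nearly alike, so it cannot test these offsets, which were the same under either scaling. The offsets do depend on the genes compared. With the stricter filter the all-gene medians were 0.006, −0.065, 0.082 and −0.022. In HeyA8 with sG5C and PC3 with sCAG these lie nearer the member medians of −0.09 and 0.14. Members called at over 1.5-fold numbered 10, 5, 1 and 8 in the same order, so the text below dwells on the genes with the larger changes.

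**Figure D1:**
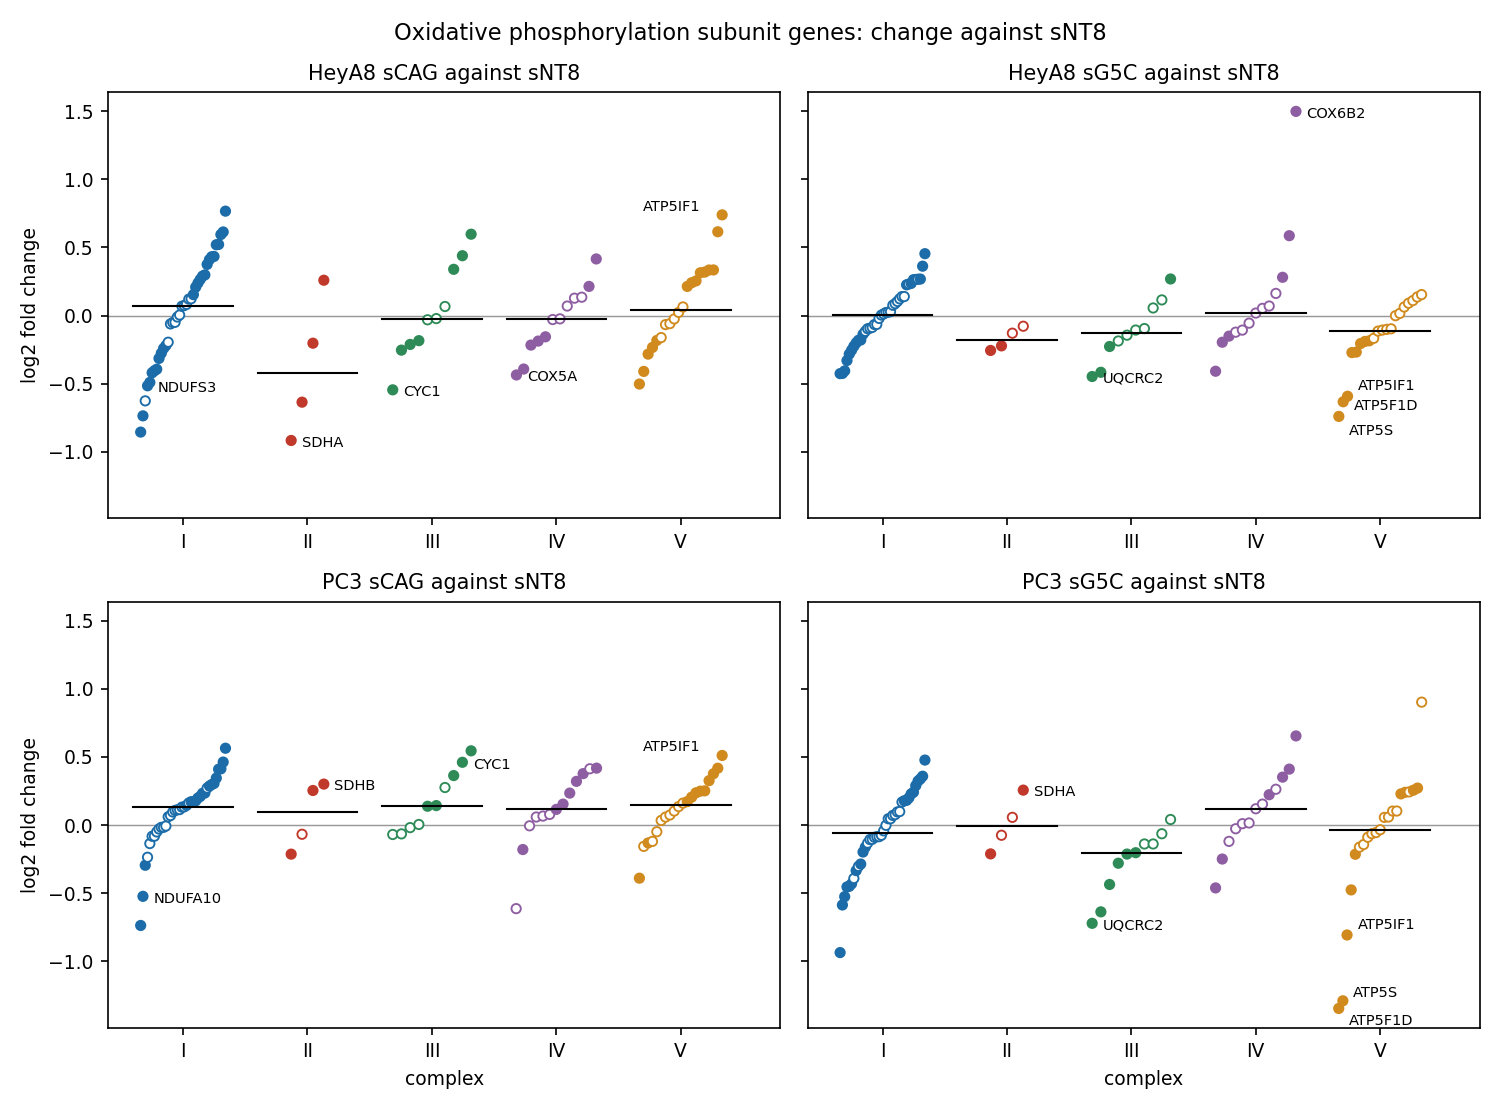
Log2 fold change against sNT8 (vertical axis) of every tested member, grouped by complex (horizontal axis), in 4 panels, one for each line and short RNA; filled points passed adjusted p under 0.05, open points did not, and black bars are medians. Complex II lies lowest in HeyA8 with sCAG, where SDHA is at −0.92, and ATP5F1D and ATP5S lie lowest in PC3 with sG5C, at −1.35 and −1.29.

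Within complex II, the line difference was largest for SDHA. SDHA, the flavoprotein that oxidises succinate, stood at 169, 161 and 167 CPM in HeyA8 with sNT8, at 131, 141 and 139 CPM with sG5C and at 88.9, 89.9 and 91.3 CPM with sCAG. The 3 groups did not overlap, and the fall after sCAG was −0.92 (SE 0.05, limma adjusted p = 1.22e-15) against −0.26 after sG5C (SE 0.05, adjusted p = 0.00022). In PC3, SDHA stood at 155, 153 and 155 CPM with sNT8, at 178, 186 and 186 CPM with sG5C and at 148, 158 and 154 CPM with sCAG. There the sG5C libraries lay highest, with a change of 0.26 (adjusted p = 0.00019). The sCAG libraries spanned the controls in CPM with TMM scaling but lay below them in the deposited normalized values; their change of −0.07 did not pass the test (adjusted p = 0.21), whereas with library totals it was −0.24 and called. The difference between the lines was itself called for both RNAs, at 0.87 for sCAG and 0.53 for sG5C (edgeR interaction, adjusted p = 5.24e-15 and 4.29e-09).

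The other complex II genes did not share one course. SDHD, a membrane anchor, fell in HeyA8 after sCAG from 68.6, 65.3 and 67.4 CPM to 43.9, 45.3 and 43.7 CPM (−0.64, limma adjusted p = 5.54e-11) and by 0.21 to 0.22 on the log2 scale in each of the other comparisons with sNT8. In PC3 with sG5C that call was lost without sG5C C, at −0.15, and in HeyA8 with sG5C it was lost with scaling by library totals. SDHB, the iron-sulphur subunit, fell in HeyA8 after sCAG by 0.20 and rose in PC3 by 0.30, whereas SDHC, the other anchor, rose after sCAG in both lines, by 0.26 and 0.25, the latter call being lost with library totals. Summed over the 4 genes, complex II held 359 to 371 CPM (by library total) in HeyA8 with sNT8, 345 to 358 with sG5C and 250 to 260 with sCAG. In PC3 the sum was 388 to 398 with sNT8, 391 to 406 with sG5C and 359 to 369 with sCAG. By library total, the sCAG sums lay below the control sums in both lines, by far more in HeyA8. In PC3 this rests on that scaling. In the deposited normalized values, 2 of the 4 genes were called higher and 1 lower in PC3 with sCAG, with a median of 0.09. With library totals they gave 1 and 2, with a median of −0.08. Of all genes, 27.6% were called higher and 23.2% lower in the normalized values.

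In complex III, CYC1 and UQCRC2 fell after sG5C in both lines, and after sCAG they fell in HeyA8 and rose in PC3. CYC1, cytochrome c1, which passes electrons to cytochrome c, stood at 184, 178 and 167 CPM in HeyA8 with sNT8, at 122, 130 and 139 CPM with sG5C and at 120, 127 and 124 CPM with sCAG. In PC3 it stood at 323, 321 and 288 CPM with sNT8, at 202, 206 and 187 CPM with sG5C and at 443, 449 and 442 CPM with sCAG. No treated library overlapped its controls. The log2 fold changes were −0.42 after sG5C and −0.55 after sCAG in HeyA8, and −0.64 after sG5C and 0.46 after sCAG in PC3 (limma adjusted p = 6.1e-07, 1.79e-10, 2.31e-10 and 4.87e-09). The sCAG effect on CYC1 differed between the lines by 1.02 (SE 0.07, edgeR interaction adjusted p = 1.28e-15), the largest positive difference of any member past 5 CPM for that RNA.

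UQCRC2, a core protein of complex III, stood at 132, 131 and 128 CPM in HeyA8 with sNT8, at 88.6, 97.6 and 96.6 CPM with sG5C and at 112, 118 and 106 CPM with sCAG. In PC3 the values were 116, 124 and 127 CPM with sNT8, 72.5, 77.1 and 71.8 CPM with sG5C and 140, 148 and 134 CPM with sCAG. Both treated groups lay below the controls in HeyA8, and in PC3 sG5C lay below and sCAG above them. Its falls after sG5C were −0.45 in HeyA8 and −0.72 in PC3 (limma adjusted p = 9.81e-08 and 2.68e-11); the rise of 0.14 in PC3 after sCAG was lost with library totals. UQCRFS1, the Rieske iron-sulphur protein, fell by 0.18 in HeyA8 after sCAG and by 0.21 in PC3 after sG5C, and did not pass the test in HeyA8 after sG5C (−0.11, adjusted p = 0.16) or in PC3 after sCAG (−0.02, adjusted p = 0.79). Of 10 complex III genes, 0 rose and 6 fell in PC3 with sG5C, and 5 rose and 0 fell in PC3 with sCAG (3 and 3 with library totals). The shares called, 60% and 50%, were near the 57.7% and 50.8% of all genes. By direction, 28.5% of all genes rose and 29.2% fell with sG5C, and 27.6% rose and 23.2% fell with sCAG. Summed over the complex III genes, CPM by library total were 930 to 980 in PC3 with sNT8, 679 to 726 with sG5C and 1009 to 1061 with sCAG. These are ranges without overlap on the library totals themselves. A sum weighs abundant genes most, and CYC1 alone went from a mean of 311 to 444 CPM (TMM scaling) after sCAG. With library totals the median change of the 10 genes was −0.03 after sCAG and −0.26 after sG5C. The medians over all genes were then −0.17 and −0.06. Among small complex III subunits, UQCR11 rose by 0.60 in HeyA8 and UQCR10 by 0.55 in PC3 after sCAG.

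**Figure D2:**
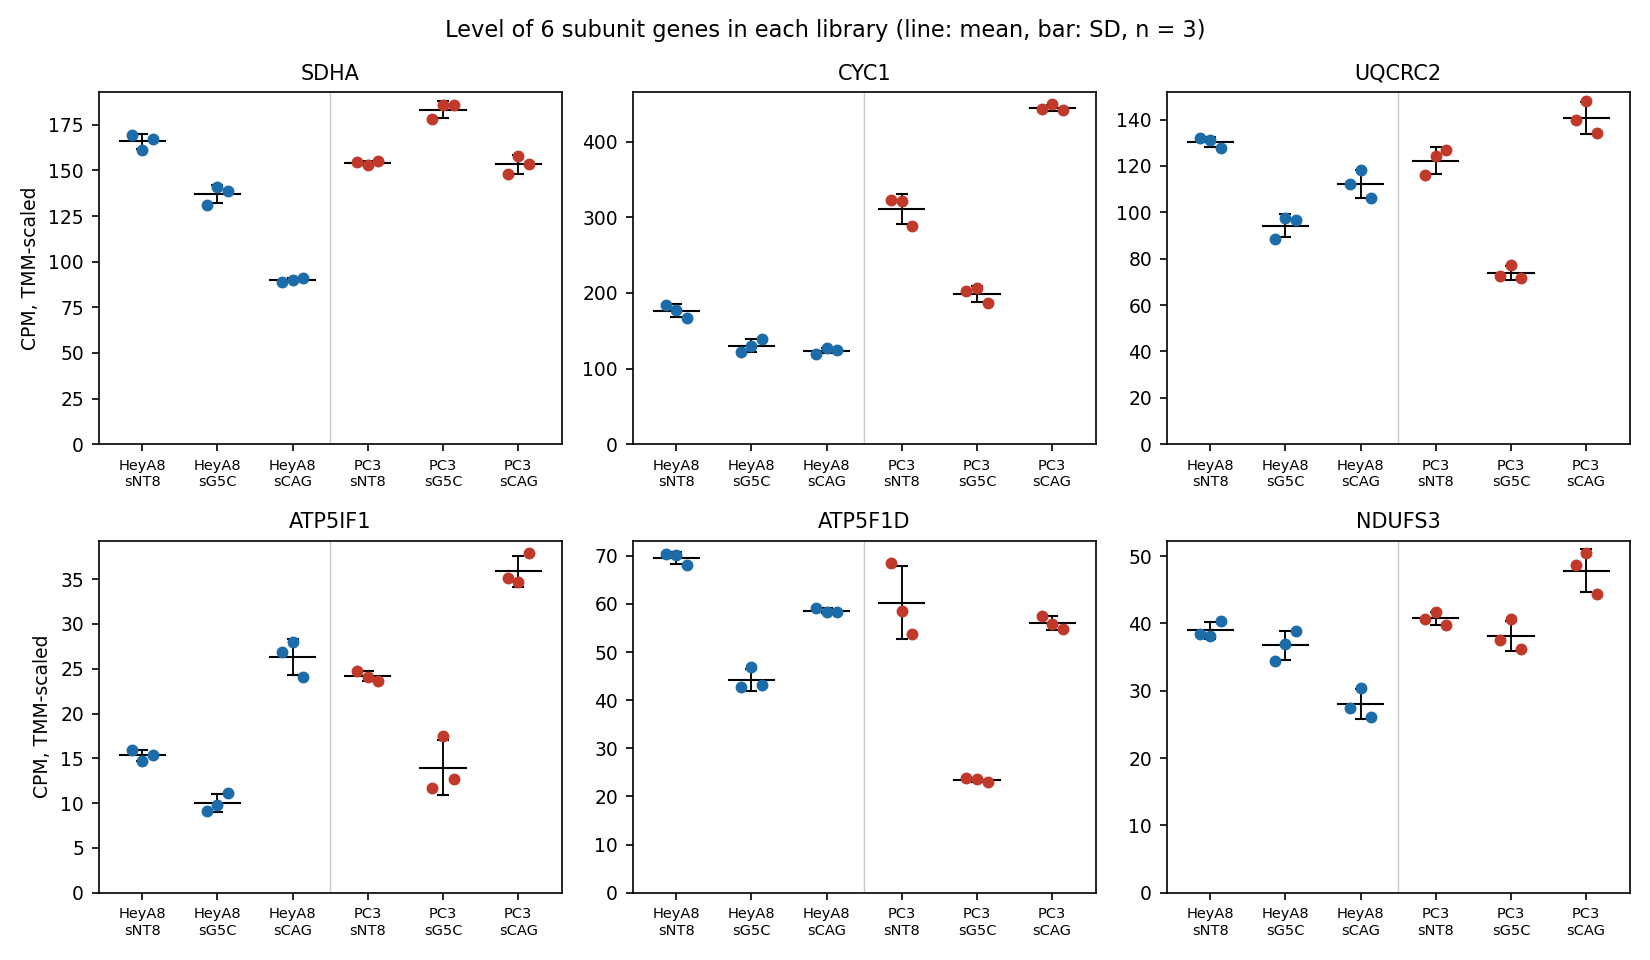
Level in CPM with TMM scaling (vertical axis, from 0) of SDHA, CYC1, UQCRC2, ATP5IF1, ATP5F1D and NDUFS3 in the 3 libraries of each of the 6 groups; points are libraries, lines are means and bars are SDs. SDHA is lowest in HeyA8 with sCAG, CYC1 is highest in PC3 with sCAG at 442 to 449 CPM, and ATP5F1D is lowest in PC3 with sG5C at 22.9 to 23.8 CPM.

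Complex I genes divided by role in HeyA8 after sCAG. Its 7 nuclear core subunits, which carry the flavin and the iron-sulphur clusters or shape the quinone site, gave 0 higher and 6 lower calls, while 31 accessory genes gave 15 higher and 5 lower. This grouping was made after values were seen and is a description. Of all genes, 29.3% were called higher and 30.2% lower in HeyA8 after sCAG. With library totals the counts were 0 and 7 for the core and 11 and 9 for the accessory genes. In PC3 after sCAG the core gave 3 higher and 0 lower calls (0 and 2 with library totals), and the line difference was called positive for all 7 (5 with library totals). Of all genes, 27.6% were called higher and 23.2% lower there, and 22.1% had a positive line difference. After sG5C the core gave 0 higher and 2 lower in HeyA8 and 1 higher and 1 lower in PC3, which became 2 and 0 in HeyA8 and 0 and 3 in PC3 with library totals. The shares of all genes after sG5C were 24.5% higher and 27.9% lower in HeyA8 and 28.5% and 29.2% in PC3.

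NDUFS3, a core subunit of the arm that reaches into the matrix, stood at 38.4, 38.1 and 40.4 CPM in HeyA8 with sNT8, at 34.5, 36.9 and 38.8 CPM with sG5C and at 27.5, 30.4 and 26.1 CPM with sCAG. In PC3 it stood at 40.7, 41.7 and 39.8 CPM with sNT8, at 37.5, 40.7 and 36.2 CPM with sG5C and at 48.7, 50.5 and 44.3 CPM with sCAG. The sCAG libraries lay below all controls in HeyA8 and above them in PC3, and the sG5C libraries overlapped the controls in both lines. The change after sCAG was −0.52 in HeyA8 (SE 0.07, limma adjusted p = 1.33e-07) and 0.17 in PC3 (SE 0.06, adjusted p = 0.017), a difference of 0.70 (edgeR interaction adjusted p = 2.2e-08). The PC3 rise was lost with library totals. NDUFS1, the largest iron-sulphur subunit, fell by 0.31 in HeyA8 after sCAG, and NDUFV1, the flavin-binding subunit, by 0.22. NDUFV2, a further iron-sulphur protein, fell from 7.41, 6.89 and 6.62 CPM to 5.26, 3.56 and 4.16 CPM (−0.74, limma adjusted p = 3.92e-05), at a level below that of its pseudogenes.

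Among the accessory genes at 5 CPM or more, the highest rises after sCAG in HeyA8 were those of NDUFS5 (0.61), NDUFV3 (0.59) and NDUFA12 (0.52); below that level NDUFA13 rose by 0.77, from 2.06, 2.01 and 2.09 CPM to 3.40, 3.27 and 4.20 CPM. NDUFS5 stood at 26.5, 27.5 and 24.7 CPM with sNT8 and 42.1, 42.9 and 38.5 CPM with sCAG in HeyA8, but at 26.7, 26.3 and 22.2 CPM and 28.0, 24.7 and 24.0 CPM in PC3. The groups were apart in HeyA8 and overlapped in PC3, and the line difference was −0.63 (edgeR interaction adjusted p = 2.52e-05). NDUFA12, which joins complex I late in its assembly, was called higher in all 4 comparisons with sNT8, by 0.52 and 0.36 in HeyA8 with sCAG and sG5C and by 0.36 in PC3 with sG5C, with 77.2, 77.3 and 76.6 CPM in PC3 with sCAG against 60.6, 64.4 and 67.0 CPM in its controls, a call lost with library totals in PC3 with sCAG. NDUFA3 and NDUFB10 rose in PC3 after sCAG by 0.56 and 0.46, and NDUFC1 and NDUFB4 rose in PC3 after sG5C by 0.48 and 0.34.

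NDUFA10, an accessory subunit of the membrane arm, fell in PC3 after sCAG from 94.3, 97.2 and 103 CPM to 69.6, 74.6 and 68.9 CPM (−0.52, limma adjusted p = 4.76e-09), the lowest value among members past 5 CPM there, and it also fell in HeyA8 after sCAG, by 0.39. NDUFA11 went opposite ways after sCAG, with 8.89, 9.27 and 8.59 CPM rising to 12.3, 13.3 and 11.5 CPM in HeyA8. In PC3 it stood at 17.8, 13.4 and 13.6 CPM with sNT8 and 12.8, 12.9 and 12.0 CPM with sCAG, a call of −0.29 that was lost without sNT8 A (−0.17) or sCAG C (−0.27). After sG5C, the lowest complex I changes at 5 CPM or more were NDUFB9 in both lines (−0.43 in HeyA8 and −0.59 in PC3) and NDUFA3 in HeyA8 (−0.43). The rises of NDUFB8, NDUFA11 and NDUFB6 in HeyA8 after sG5C, at 0.27, 0.26 and 0.24, were each lost without sNT8 C (0.25, 0.23 and 0.20) or sG5C C (0.22, 0.21 and 0.19), and that of NDUFB8 also without sNT8 B (0.26) or sG5C B (0.21).

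In complex IV, changes were modest and mixed. COX4I1, which regulates the oxidase by its ATP binding, was not called in 3 of the 4 comparisons with sNT8, and its call in PC3 after sCAG (0.12, limma adjusted p = 0.049) was lost without sNT8 C (0.06) or without any single sCAG library (0.10 to 0.13) and turned to −0.06 with library totals. COX7A2 and NDUFA4 rose after sG5C in both lines. COX7A2 stood at 74.4, 67.7 and 73.2 CPM with sNT8 and 76.8, 87.7 and 93.9 CPM with sG5C in HeyA8, and at 64.4, 70.6 and 64.6 CPM and 89.5, 91.9 and 82.8 CPM in PC3. The sG5C libraries were all higher than the controls, with changes of 0.28 and 0.41 (limma adjusted p = 0.001 and 2.44e-06). NDUFA4 rose by 0.23 in HeyA8 and 0.32 in PC3 after sG5C, the former call being lost without sG5C B (0.14), and fell by 0.28 in HeyA8 after sCAG. COX6A1, with the pseudogene limit given above, rose in PC3 by 0.42 after sCAG and 0.35 after sG5C. COX6B1, the most abundant complex IV gene per length in HeyA8, rose after sCAG by 0.21 in HeyA8, a call lost with library totals, and by 0.32 in PC3.

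Of complex IV genes, 5 fell and 2 rose of 12 in HeyA8 with sCAG, and 3 fell and 3 rose of 13 with sG5C. In PC3, 1 fell and 6 rose of 13 with sCAG, and 2 fell and 4 rose of 13 with sG5C. The genes called were 58.33%, 46.15%, 53.85% and 46.15% of those tested. Of all genes, 59.5%, 52.4%, 50.8% and 57.7% were called in the same order. Library totals turned the HeyA8 sG5C counts to 1 and 7 and the PC3 sCAG counts to 3 and 3. COX7B fell by 0.41 in HeyA8 after sG5C and rose by 0.38 in PC3 after sCAG. COX5A, a matrix-side subunit, fell in HeyA8 after sCAG from 59.8, 58.3 and 57.4 CPM to 47.6, 44.7 and 40.9 CPM (−0.44, limma adjusted p = 3.6e-07) and in PC3 from 58.7, 56.2 and 55.2 CPM to 53.7, 53.2 and 49.6 CPM (−0.18, adjusted p = 0.0068). The sCAG libraries lay below all controls in both lines. COX8A fell by 0.46 in PC3 after sG5C and by 0.39 in HeyA8 after sCAG. COX7A2L, the supercomplex factor, rose after sCAG by 0.42 in HeyA8 and by 0.23 in PC3, the latter call being lost with library totals. The minor forms stayed low: COX7A1, the muscle form, was at 0.586 to 2.70 CPM in all libraries and COX6B2, the testis form, at 0.135 to 1.02 CPM. COX6B2 rose in HeyA8 after sG5C from 0.302, 0.172 and 0.192 CPM to 0.844, 0.524 and 0.629 CPM, a 2.83-fold change (limma adjusted p = 0.0019) at a level near the detection limit.

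In complex V, the called changes over 0.7 on the log2 scale were those of ATP5IF1, ATP5F1D and ATP5S. ATP5IF1, which blocks ATP hydrolysis by the synthase, stood at 15.9, 14.7 and 15.3 CPM in HeyA8 with sNT8, at 9.18, 9.83 and 11.1 CPM with sG5C and at 26.8, 28.0 and 24.1 CPM with sCAG. In PC3 it stood at 24.7, 24.1 and 23.6 CPM with sNT8, at 11.7, 17.5 and 12.7 CPM with sG5C and at 35.1, 34.7 and 37.9 CPM with sCAG. In both lines every sG5C library lay below, and every sCAG library above, the controls. The changes after sCAG were 0.74 and 0.51 and those after sG5C −0.59 and −0.81 in HeyA8 and PC3 (limma adjusted p = 3.38e-09, 2.96e-07, 3.68e-06 and 1.04e-06). Tested directly, sCAG exceeded sG5C by 1.33 in HeyA8 and 1.30 in PC3 (edgeR, SE 0.08 and 0.10), the largest difference among members past 5 CPM in each line.

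ATP5F1D, the delta subunit of the rotor stalk, stood at 70.3, 70.3 and 68.2 CPM in HeyA8 with sNT8, at 42.7, 46.9 and 43.1 CPM with sG5C and at 59.2, 58.3 and 58.4 CPM with sCAG. In PC3 the values were 68.6, 58.5 and 53.8 CPM with sNT8, 23.8, 23.7 and 22.9 CPM with sG5C and 57.5, 55.9 and 54.7 CPM with sCAG. The sG5C libraries were lowest in each line, and the sCAG libraries of PC3 overlapped the controls. Its fall after sG5C was −0.63 in HeyA8 and −1.35 in PC3 (limma adjusted p = 4.78e-10 and 1.26e-14), and the lines differed by −0.70 (edgeR interaction adjusted p = 1.39e-08). ATP5S fell from 22.2, 22.8 and 23.4 CPM to 13.5, 12.5 and 14.4 CPM in HeyA8 and from 25.4, 27.5 and 26.0 CPM to 9.34, 12.3 and 10.5 CPM in PC3 after sG5C, by −0.74 and −1.29, with a line difference of −0.53. After sCAG it did not pass the test in HeyA8 (0.02, adjusted p = 0.80) and fell by 0.39 in PC3.

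ATP5F1A and ATP5F1B form the catalytic head. ATP5F1A, the alpha subunit, stood at 301, 298 and 303 CPM in HeyA8 with sNT8 and at 216, 221 and 215 CPM with sCAG, a fall of −0.50 (limma adjusted p = 2.5e-11) without overlap. In PC3 after sCAG its change was −0.13 (adjusted p = 0.0172), a call lost without sNT8 B (−0.11) or sCAG C (−0.09). ATP5F1B fell in HeyA8 by 0.23 after sCAG and by 0.27 after sG5C, and rose by 0.21 in PC3 after sCAG, the last call being lost with library totals. ATP5F1E, the epsilon subunit, rose in HeyA8 after sCAG from 115, 104 and 109 CPM to 179, 183 and 154 CPM (0.61, adjusted p = 5.82e-09). NDUFA4L2, although listed with complex I, is given here for its low level: 6.14, 5.86 and 5.82 CPM in HeyA8 with sNT8 became 3.27, 3.70 and 3.11 CPM with sCAG (−0.86, adjusted p = 3.29e-06) and 7.18, 6.57 and 6.89 CPM with sG5C (0.23, adjusted p = 0.086). In PC3 it was at 2.06, 2.46 and 2.42 CPM with sNT8, 1.37, 1.11 and 1.10 CPM with sG5C (−0.94) and 1.79, 1.45 and 1.12 CPM with sCAG (−0.74), below the controls in both cases.

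The lines, which share no libraries, were also compared in their response. Joint calls of the 2 lines were counted over members only, and the share of all genes with the same pattern was not computed. Between 50.8% and 59.5% of all genes were called in each comparison with sNT8, so the joint counts only describe the members. After sCAG, 17 members were called higher in both, 5 lower in both (ATP5F1A, COX5A, NDUFA10, NDUFA4L2 and SDHD), 9 lower in HeyA8 and higher in PC3 (among them ATP5F1B, COX5B, CYC1, NDUFS3, SDHB and UQCRC2), and 1, NDUFA11, the other way. With library totals these counts were 6, 17, 3 (CYC1, NDUFB5 and SDHB) and 3 (NDUFA11, NDUFB2 and NDUFS5). After sG5C, 6 were called higher in both lines, 17 lower in both, 2 (SDHA among them) lower in HeyA8 and higher in PC3, and 0 the other way; with library totals the counts were 13, 10, 1 (SDHA) and 2 (NDUFA4L2 and NDUFA9). By the test of the difference itself, the sCAG effect was higher in PC3 for 31 and lower for 9 of 86 members, with 37.1% of all genes called (22.1% and 15.0%); without HeyA8 sCAG C, 31 became 20. The sG5C effect was higher for 13 and lower for 11, with 32.8% of all genes called (18.3% and 14.6%). The 24 sG5C calls stood below the share of all genes, at 27.9% of the 86 members. Scaling by library totals turned these counts to 25 and 14 for sCAG and to 2 and 33 for sG5C. The sG5C counts also moved without single libraries: the 13 became 7 without PC3 sNT8 C or PC3 sG5C B and 8 without HeyA8 sNT8 A, HeyA8 sG5C A or PC3 sG5C A, and the 11 became 7 without HeyA8 sNT8 C.

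**Figure D3:**
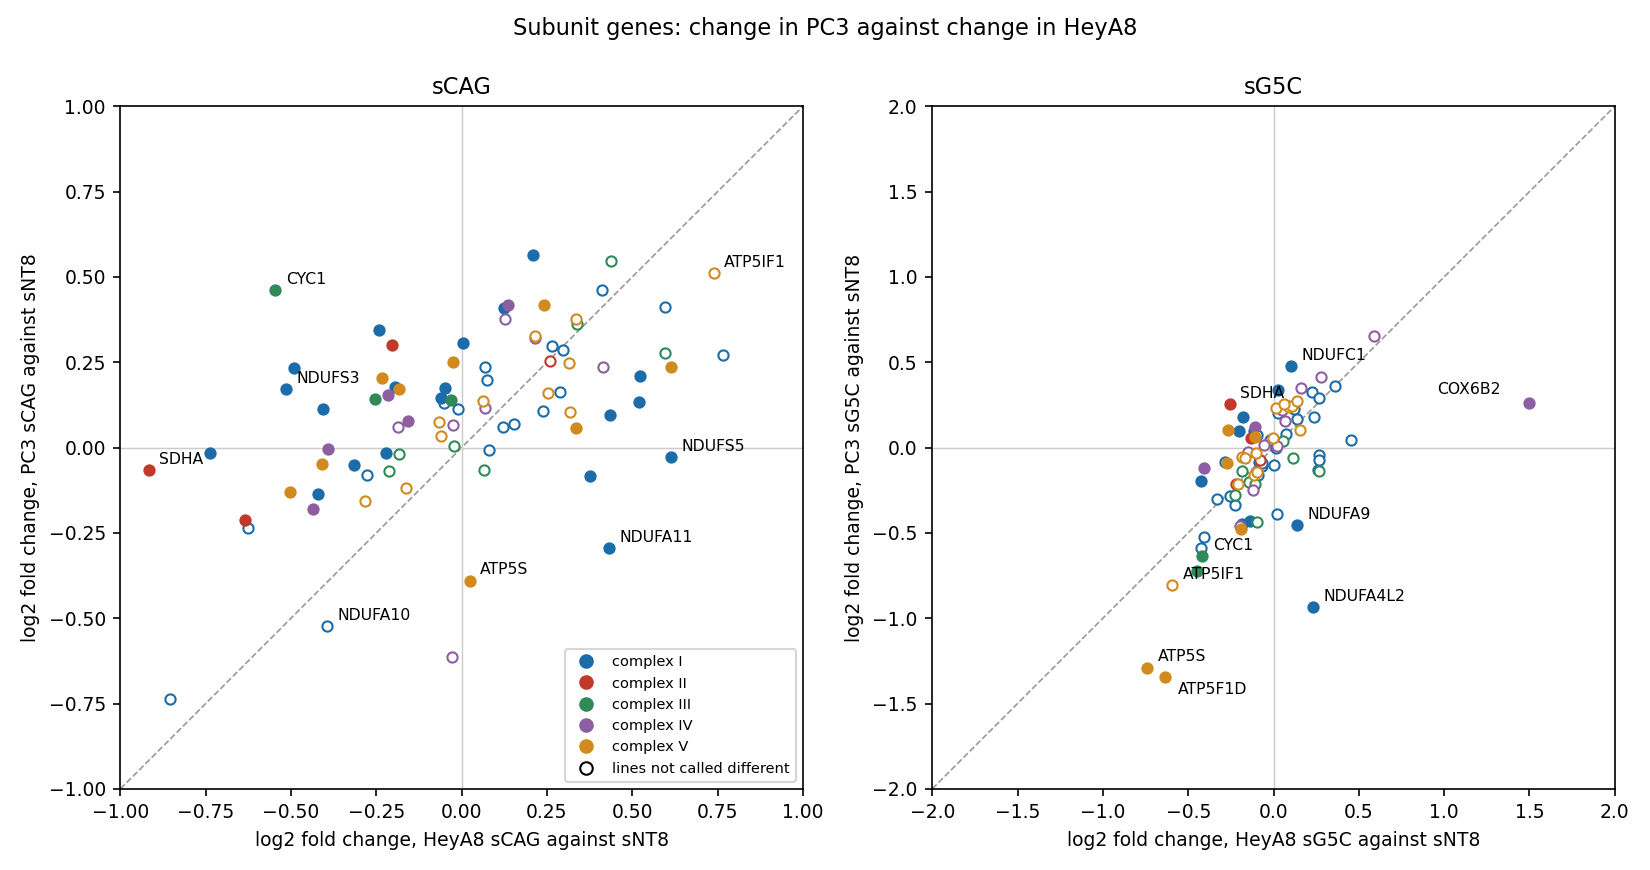
Log2 fold change against sNT8 in HeyA8 (horizontal axis) and PC3 (vertical axis) for each member tested in both, for sCAG (left) and sG5C (right); filled points have a line difference with adjusted p under 0.05 by edgeR, and the dashed line marks equal change. CYC1 at −0.55 and 0.46 and SDHA at −0.92 and −0.07 stand farthest above that line for sCAG, and ATP5F1D at −0.63 and −1.35 lies below it for sG5C.

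The RNAs were also set against each other within each line. In HeyA8, 36 of 85 members were higher and 25 lower with sCAG than with sG5C, with 65.2% of all genes called (31.8% higher, 33.4% lower); library totals gave 15 and 45. In PC3, 37 of 86 were higher and 12 lower, with 62.7% of all genes called (31.6% higher, 31.1% lower); library totals gave 29 and 23, and without PC3 sG5C B or PC3 sCAG C the count of 12 was 7. Among the named members, ATP5IF1, given above, and ATP5S were higher with sCAG in both lines (ATP5S 0.76 and 0.90, edgeR adjusted p = 1.34e-10 and 1.14e-10). In HeyA8 NDUFV3 and NDUFS5 followed, at 0.77 and 0.70. In PC3 ATP5F1D and CYC1 were higher with sCAG by 1.20 and 1.10. SDHA and NDUFB6 were lower with sCAG than with sG5C in both lines, by −0.67 and −0.66 in HeyA8 and −0.32 and −0.31 in PC3. NDUFA4L2 (−1.10) and NDUFS7 (−0.69) were lower with sCAG in HeyA8. NDUFA4 and COX7A2 were lower with sCAG in PC3 (−0.40 and −0.33) and in HeyA8 (−0.51 and −0.45).

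Genes that build or serve the complexes were read in the same way, against the shares of all genes given above (59.5%, 52.4%, 50.8% and 57.7%). Of the assembly factors, 10 rose and 19 fell of 47 in HeyA8 with sCAG, 6 and 17 of 47 with sG5C, 17 and 10 of 48 in PC3 with sCAG, and 11 and 29 of 48 with sG5C, which are 61.7%, 48.9%, 56.2% and 83.3% of the list. COX10, which makes heme for complex IV, fell after sCAG by 1.76 in HeyA8 and 1.45 in PC3 on the log2 scale. LYRM7, which guides the Rieske protein into complex III, and COA7 fell in PC3 after sG5C by 1.28 and 1.10, and ECSIT, a complex I assembly factor, fell in HeyA8 after sG5C by 1.06. COX17, a copper chaperone of complex IV, rose in PC3 after sG5C by 0.80. Of 78 mitochondrial ribosomal proteins, which translate the subunits encoded in mitochondrial DNA, 13 rose and 35 fell in HeyA8 with sCAG, 13 and 29 with sG5C, 34 and 10 in PC3 with sCAG, and 12 and 34 with sG5C. These shares, 61.5%, 53.8%, 56.4% and 59.0%, were near those of all genes. Library totals turned the PC3 sCAG counts of both lists, to 8 higher and 20 lower for assembly factors and 16 and 24 for ribosomal proteins, and the HeyA8 sG5C counts, to 13 and 8 and to 26 and 20.

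Of 14 TCA cycle genes outside complex II, 1 rose and 11 fell in HeyA8 with sCAG, 1 and 5 with sG5C, 5 and 3 in PC3 with sCAG, and 5 and 4 with sG5C, or 85.7%, 42.9%, 57.1% and 64.3% of the list. Library totals gave 2 and 8 in PC3 with sCAG and 6 and 4 in HeyA8 with sG5C. Citrate synthase (CS) fell after sG5C by 1.47 in HeyA8 and 1.87 in PC3. IDH2 fell after sCAG by 1.51 in HeyA8 and 0.95 in PC3 and rose in PC3 after sG5C by 0.82. Fumarase (FH), which follows complex II in the cycle, fell by 1.27 in HeyA8 after sCAG. Of the regulators of mitochondrial biogenesis, 4 rose and 12 fell of 22 in HeyA8 with sCAG, 2 and 11 of 21 with sG5C, 5 and 6 of 22 in PC3 with sCAG, and 1 and 7 of 22 with sG5C, or 72.7%, 61.9%, 11 of 22 and 36.4% of the list. Library totals gave 4 and 6 in HeyA8 with sG5C, 3 and 10 in PC3 with sCAG and 0 and 10 in PC3 with sG5C. PPRC1, a coactivator related to PGC-1, fell in each comparison with sNT8, by 0.69 and 0.92 in HeyA8 and 0.45 and 1.66 in PC3 with sCAG and sG5C. NRF1 itself fell in PC3 after sCAG by 0.41, and GABPA, an ETS factor, fell in HeyA8 after sG5C by 0.57 and rose in PC3 after sCAG by 0.33.

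Known targets of the hypoxia factor HIF, which shifts cells toward glycolysis, gave 17 higher and 0 lower of 18 in HeyA8 with sCAG, 13 and 2 of 17 with sG5C, 11 and 2 of 18 in PC3 with sCAG, and 16 and 0 of 18 with sG5C, with medians of 1.40, 0.62, 0.43 and 1.53. These were 94.4%, 88.2%, 72.2% and 88.9% of the list, beside 59.5%, 52.4%, 50.8% and 57.7% of all genes. With library totals the counts were 16 and 1, 14 and 1, 9 and 3, and 16 and 0. BNIP3 and ADM rose by 2.39 and 3.27 in HeyA8 after sCAG, and the glucose transporter SLC2A1 rose by 2.29 in PC3 after sG5C, while NDUFA4L2 fell in both of these comparisons. Of 27 genes for the CCT chaperonin, the coatomer and RNA polymerase II, other large assemblies used for comparison, 6 rose and 13 fell, 4 and 10, 8 and 5, and 12 and 6 in the same order. These were 70.4%, 51.9%, 48.1% and 66.7% of the list, beside 69.0%, 44.7%, 52.9% and 43 of 86 of the subunit genes, and library totals turned them to 3 and 17, 11 and 8, 3 and 14, and 10 and 9. POLR2E of this list fell by 1.92 in HeyA8 and 2.33 in PC3 after sG5C.

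**Figure D4:**
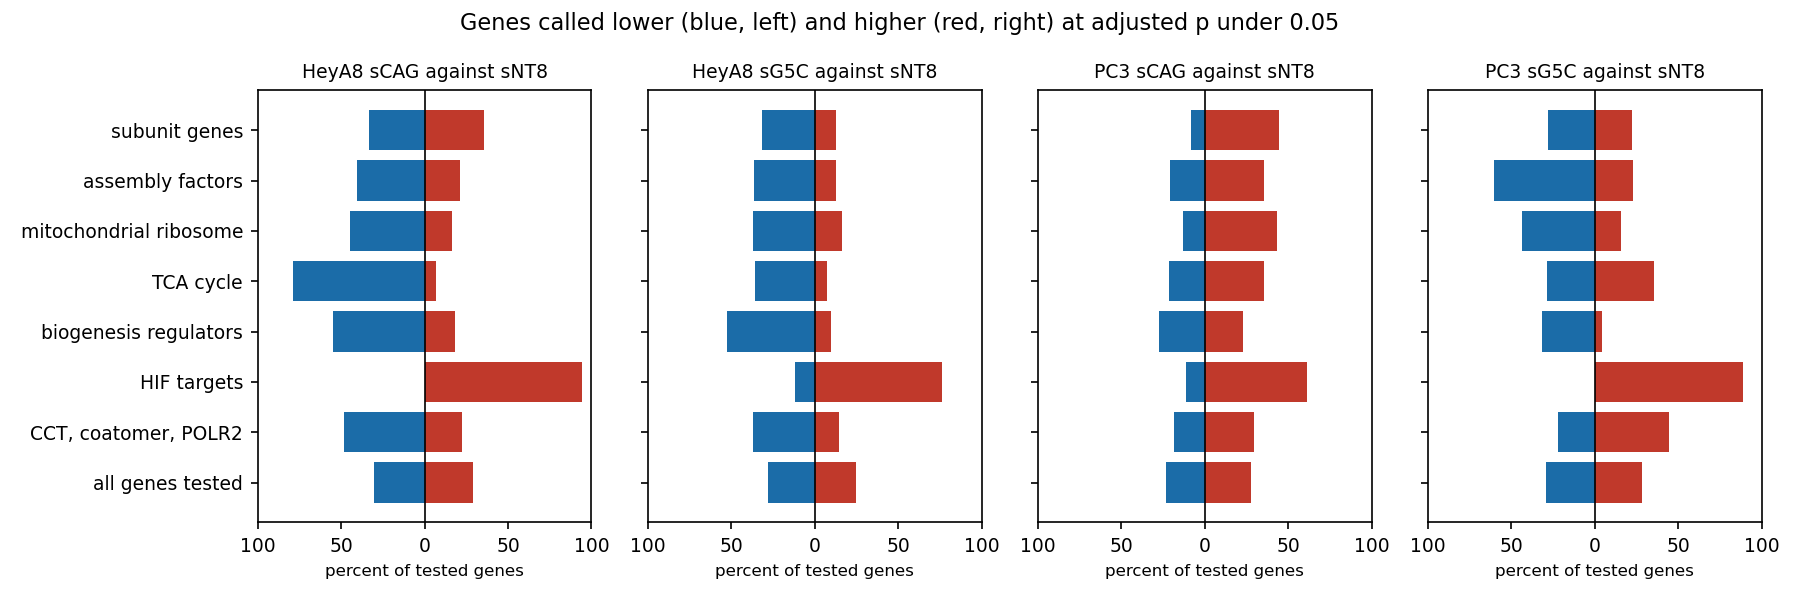
Percent of tested genes called lower (blue, left of 0) and higher (red, right of 0) at adjusted p under 0.05 for the subunit genes, the other lists and all genes tested (horizontal axis in percent), in 4 panels for the comparisons with sNT8. Among the uneven ones are the subunit genes (38 higher, 7 lower of 85) and the mitochondrial ribosomal proteins (34 higher, 10 lower of 78) in PC3 with sCAG. The TCA cycle in HeyA8 with sCAG (1 higher, 11 lower of 14) and the HIF targets are uneven too. With library totals, the PC3 sCAG counts of the subunit genes and of the ribosomal proteins each became 16 higher and 24 lower.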

How the data were processed

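Per the submitters' processing notes, TopHat, Bowtie2, HTSeq and DESeq2 were used with hg38; versions are not stated there, nor is the strand setting. The authors deposited normalized signal per gene, that is counts divided by size factors, in 4 tables of 6 libraries, each setting 1 short RNA against sNT8 in 1 line. Whole reads were recovered for 100% of values (tolerance 1e-06), and the sNT8 reads were identical in both tables of a line. Comparisons with sNT8 used limma 3.58.1 (trend, robust) on log2(value + 1) within a table; those across tables used edgeR 4.0.16 quasi-likelihood tests with TMM scaling on recovered reads. Both used filterByExpr (minimum count 10) and Benjamini-Hochberg adjustment over all genes tested, threshold 0.05. The sCAG and sG5C comparisons of a line share their sNT8 libraries. Levels are CPM with TMM scaling over 18 libraries (sums per complex and markers: library totals); n is 3 per group.

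The symbol rule for members uses no measured values. Earlier results of these data were known when the members and lists were chosen. Named members were the 6 highest and 6 lowest called, at 5 CPM or more without overlap between groups (4 and 4 in comparisons across tables), with a fixed set; other lists gave up to 2 genes each way by smallest p. Other genes and values set beside a named one were added after their values were seen, and some genes are not reported here. Both tests were tested on simulated data. Alternatives were DESeq2 1.42.0, the other count test and scaling, pseudocounts 0.1 and 10, no filter and a mean of 100, library totals, a replicate block and leaving out each library.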

Additional observations from a re-analysis of the deposited data

Results flagged for a closer look

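Results are listed here because the effect of a short RNA, tested with edgeR, differed between PC3 and HeyA8 past the threshold; all values are log2 differences, PC3 minus HeyA8. For sCAG the difference was 1.021 for CYC1, 0.866 for SDHA and 0.711 for NDUFV2. It was −0.728 for NDUFA11, −0.629 for NDUFS5, −0.445 for NDUFB2 and −0.398 for ATP5S. For sG5C the difference was 0.532 for SDHA, 0.394 for ATP5MC2 and 0.389 for NDUFC1, the last not past the threshold with scaling by library totals. It was −1.159 for NDUFA4L2, −0.703 for ATP5F1D, −0.574 for NDUFA9 and −0.526 for ATP5S.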

How the results depend on the processing

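Scaling by library totals moved most counts of members. The median change became −0.125 for HeyA8 sCAG, 0.045 for HeyA8 sG5C and −0.036 for PC3 sCAG. Called higher and lower were 31 and 12 for HeyA8 sG5C, 16 and 24 for PC3 sCAG, and 15 and 45 for sCAG against sG5C in HeyA8. Lower calls became 23 for the RNAs in PC3, 14 for the sCAG line difference and 12 for the control lines, and the sG5C line difference gave 2 higher and 33 lower. Without a filter, lower calls for the RNAs in PC3 were 6, and with the stricter filter 19, with 15 for the sCAG line difference. Leaving out single libraries gave 5 to 17 higher calls for HeyA8 sG5C, 11 to 22 for PC3 sG5C, 20 to 34 for the sCAG and 7 to 17 for the sG5C line difference, and 7 to 15 lower calls for the RNAs in PC3 and for the sG5C line difference. Named genes that changed sign did so with library totals: COX4I1 in PC3 sCAG (−0.057); COX4I1 (−0.131), COX6B1 (−0.059) and ATP5F1B (−0.216) between the RNAs in HeyA8; COX6B1 (−0.200), SDHB (−0.188), SDHC (−0.004), NDUFS1 (−0.188) and ATP5F1B (−0.006) in the sG5C line difference; and COX6B1 (0.226), COX7A2 (0.139), SDHA (0.142), NDUFV1 (0.206), UQCRFS1 (0.117) and ATP5F1A (0.022) between the control lines.

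Libraries with the same letter correlated at −0.018 to 0.094 in HeyA8 and 0.050 to 0.173 in PC3 over 13620 genes, beside −0.097 to 0.054 and −0.138 to 0.033 for different letters. In PC3 every same-letter value thus lay above every other, though not all passed 0.1. The main tests did not pair samples by letter, so they take no account of this in PC3. Over all genes, calls in PC3 went from 11667 to 12231 for sCAG and from 13755 to 14242 for sG5C when replicate was a block. With a replicate block, members called numbered 60 and 36 for HeyA8 with sCAG and sG5C, 50 and 45 for PC3, 63 and 54 between the RNAs, 45 and 28 for the line differences and 60 for the control lines. Of 1794 results for named genes with a library left out, 99 fell below the threshold. Low members and those with copies are limited by depth and by read sharing.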
